A study of Mus musculus with 38 samples.

Results

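The comparison was whether a homozygous extra dose of Ube3a changed gene expression by a different amount in the prefrontal cortex (PFC) and in the hypothalamus (Hypo) of the same mouse line. For each gene, the effect of genotype was taken in each tissue as Ube3a2X minus WT on the log2 scale, and the Hypo effect was subtracted from the PFC effect. A positive difference means a more positive effect in the PFC. This contrast covered every tested gene, and all 38 of the 38 libraries entered it, 10 PFC WT, 10 PFC Ube3a2X, 8 Hypo WT, and 10 Hypo Ube3a2X, with females and males pooled and sex kept as a covariate. The libraries came from 25 adult mice on the FVB/NJ background, and 13 of these mice, 4 WT and 9 Ube3a2X, gave both tissues. WT mice were littermates, and Ube3a2X mice were homozygous for an added Ube3a transgene with a FLAG tag at its C-terminal end. The transgene is an extra copy in 1 mouse line, so its own insertion site and the tag belong to the model as much as the dose. Both tissues were dissected by hand as bulk tissue, and in such samples fewer cells of a type and less RNA per cell cannot be told apart.

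Ube3a encodes a HECT-type E3 ubiquitin ligase, which attaches ubiquitin to substrate proteins and so marks many of them for the proteasome, and it also acts as a coactivator of steroid hormone receptors. In neurons the gene is imprinted, with the maternal copy active and the paternal copy held silent by an antisense transcript that runs through Snhg14. Loss of the maternal copy causes Angelman syndrome, and duplication of the region that holds it is associated with autism.

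The tissue labels were borne out by genes that define the tissues. Slc17a7, the vesicular glutamate transporter of cortical projection neurons, measured 1485 to 2008 CPM (read counts scaled to a common library size, with TMM factors) in the PFC and 0.42 to 8.60 CPM in the Hypo. The summed level of 16 hypothalamic transcription factors was at least 228 CPM in every Hypo library, and no member of that list passed the filter on low counts in the PFC.

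One library stood apart. Hypo WT female 471 had the fewest counted reads of the Hypo libraries, 39.0 M, with 44.7 M in the next, Hypo Ube3a2X male 404. The most were 380.8 M in Hypo Ube3a2X female 420, followed by 125.7 M in Hypo Ube3a2X female 468. The RNA integrity number (RIN) of female 471, a score for RNA quality, was 9.3, the highest of its group. Its reads lay on the expected strand in 95.7% of cases and its ratio of 5' to 3' coverage was 0.489, both the lowest of the 18 Hypo libraries, where the others had 96.5% to 99.0% and 0.516 to 0.943. Of 26 fixed lists of genes, its summed level was above the range of the other 17 Hypo libraries in 10, below that range in 12, and within it in 4. The pituitary list summed to 5107 CPM in this library against 44.5 to 979 CPM in the others, the hypothalamic peptides to 3364 CPM against 821 to 1430 CPM, and the HECT ligases to 1977 CPM against 4074 to 5582 CPM. It was also set apart by transcript length. The median deviation from the mean of all libraries of the tissue was taken for genes in the shortest and the longest of 5 length classes. The shortest class minus the longest was 1.43 (log2) in this library and -0.16 to 0.011 in the other Hypo WT libraries. Because 1 of 8 Hypo WT libraries carries these differences, the main differences are given with all 38 libraries and again without this one, a choice made after the data were seen.

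No gene passed the test for a different effect of genotype in the 2 tissues. Of 12569 genes tested with edgeR's quasi-likelihood test, 0 (0%) reached an adjusted p under 0.05, with 0.578 as the smallest. DESeq2 and limma-voom also called 0 genes. At an unadjusted p under 0.05 there were 948 genes, or 7.54% of those tested, of which 523 (4.16%) had a positive and 425 (3.38%) a negative difference. With limma-voom the split turned toward negative differences, with 331 positive and 523 negative. With Hypo WT female 471 left out the test called 0 genes (0%), at a smallest adjusted p of 0.998. The 532 genes then at an unadjusted p under 0.05 split into 179 (1.42%) with a positive and 353 (2.81%) with a negative difference. Of the 523 positive genes 137 kept their direction and an unadjusted p under 0.05 without that library, and of the 425 negative genes 278 did.

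The intervals give the precision of the difference. The median absolute difference was 0.10 (log2) and the median 95% confidence interval reached 0.28 to either side of the estimate. For 97.6% of genes the interval lay within a 2-fold difference in either direction, and for 81.2% within a 1.5-fold difference. With Hypo WT female 471 left out these shares were 99.1% and 89.5%.

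Within each tissue, the effect of genotype passed edgeR's quasi-likelihood test for Ube3a and for no other gene, whereas DESeq2 called 3 genes in the PFC (9330162G02Rik, Nsdhl, and Ube3a) and 2 in the Hypo (9330162G02Rik and Ube3a). In the PFC edgeR thus called 1 gene of 12569 (0.00796%), and at an unadjusted p under 0.05 there were 205 genes (1.63%) with a positive and 345 (2.74%) with a negative effect. In the Hypo it was again 1 gene (0.00796%), with 183 (1.46%) positive and 734 (5.84%) negative at an unadjusted p under 0.05. Without Hypo WT female 471, Ube3a alone was called in each tissue (0.00796% of genes in both). The Hypo counts at an unadjusted p under 0.05 then fell from 917 to 66 genes, 38 positive (0.302%) and 28 negative (0.223%), and the PFC counts were 399 (3.17%) and 441 (3.51%). Other single libraries moved these counts as well. The Hypo count was 543 without Hypo Ube3a2X male 238 and 1433 without Hypo WT female 262, and the PFC count rose from 550 to 827 without PFC Ube3a2X male 402. With 2 surrogate variables over all libraries the counts were 1405 in the PFC and 459 in the Hypo. All these effects pool the sexes, so effects of opposite sign in females and males can cancel in them. The authors report genes with such opposite effects in the PFC, and a term for sex by genotype was not fitted here.

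Ube3a was higher in every Ube3a2X library than in every WT library of the same tissue. In the PFC the lowest, median, and highest levels were 191, 231, and 268 CPM in WT and 661, 1088, and 2209 CPM in Ube3a2X. In the Hypo they were 113, 298, and 362 CPM in WT and 751, 1239, and 1748 CPM in Ube3a2X. The lowest Hypo WT value, 113 CPM, was that of female 471, and the other 7 libraries of the group lay between 271 and 362 CPM. The gene lies on chromosome 7 at 59228750 to 59311536 of GRCm38, on the plus strand, and reads of the transgene and of the endogenous gene are counted together.

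**Figure D1:**
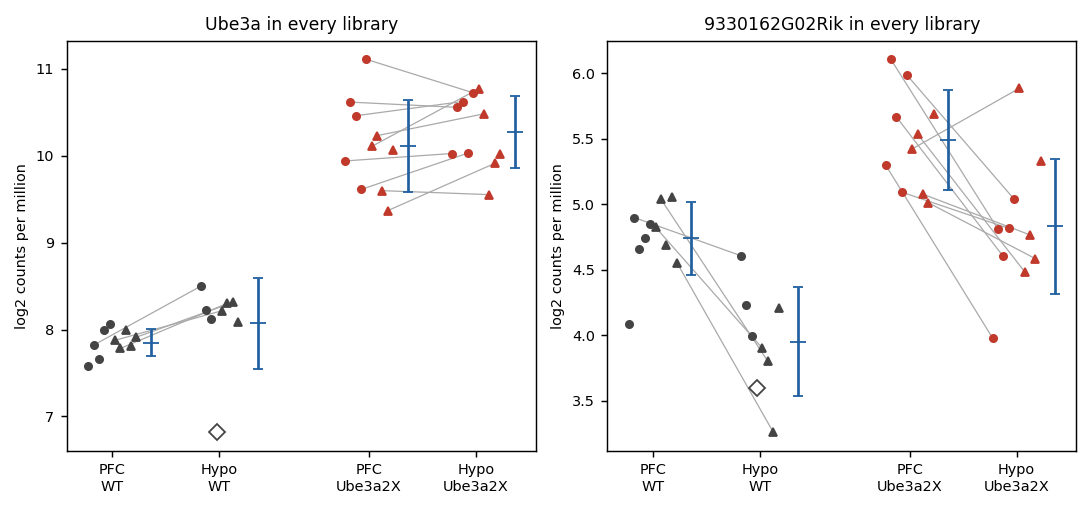
Levels of Ube3a and of 9330162G02Rik in each library, in log2 CPM on the vertical axis, by tissue and genotype on the horizontal axis. Circles are females, triangles are males, the open diamond is Hypo WT female 471, grey lines join the tissues of 1 mouse, and blue bars are the group mean ± SD. The Ube3a groups do not overlap in either tissue, and those of 9330162G02Rik do.

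The increase of Ube3a was 2.35 (log2, SE 0.186, 95% interval 1.97 to 2.72) in the PFC, with an adjusted p of 8.42e-11 from edgeR's quasi-likelihood test. In the Hypo it was 2.14 (SE 0.204, interval 1.73 to 2.55), with an adjusted p of 1.80e-08 by the same test. The difference between the tissues was 0.21 (SE 0.263, interval -0.32 to 0.74), with an adjusted p of 0.899. Without Hypo WT female 471 the Hypo increase was 1.99 and the difference was 0.36 (SE 0.227, interval -0.10 to 0.82), with an adjusted p of 0.998. Ube3a therefore rose in both tissues, and a difference between the tissues was not detected. The interval does not show that the increases were equal.

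The 13 mice with both tissues allowed a comparison within animals, without the terms for sex and RIN. Ube3a in the PFC minus Ube3a in the Hypo was -0.48 ± 0.15 (log2, SD, n = 4) in WT mice and -0.18 ± 0.33 (SD, n = 9) in Ube3a2X mice, with values from -0.66 to 0.39 in the latter. The means differed by 0.30, and an exact two-sided permutation test over the 715 arrangements of the genotype labels gave p = 0.116. The sexes were not balanced. In males the values were -0.42 ± 0.091 (SD, n = 3) in WT and -0.35 ± 0.32 (SD, n = 4) in Ube3a2X, a difference of 0.066 with an exact two-sided permutation p of 0.80, where 0.0286 was the smallest possible, a split made after the data were seen. The 1 WT female had -0.68, below the -0.42 to 0.39 of the 5 Ube3a2X females, and no test was made there. Leaving out 1 mouse at a time gave 0.23 to 0.36, and without Ube3a2X male 238 the exact permutation p was 0.0485. With the mouse as a fixed term in edgeR the difference was 0.35, with an unadjusted p under 0.05 and an adjusted p of 0.855. Female 471 gave no PFC library and did not enter the within-mouse values.

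Around Ube3a, 15 of 19 listed genes of the imprinted region and its flanks were tested. Magel2 passed the filter only in the Hypo, and Mkrn3, Peg12, and Oca2 passed in neither tissue. None of the 15 had an unadjusted p under 0.05 for the difference between tissues, 7 differences were positive and 8 negative, and their median was -0.039 against 0.012 over all genes. With female 471 left out the median was 0.013, with 8 positive and 7 negative differences, and 1 gene, Gabrg3, a subunit of the GABA-A receptor, reached an unadjusted p under 0.05 (0.30, SE 0.149), where 1.42% of all genes did so with a positive difference.

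After Ube3a, the locus gene with the largest effect in both tissues was 9330162G02Rik, annotated with the biotype TEC, a class that awaits experimental evidence, on the minus strand of chromosome 7 at 59223847 to 59254788, which overlaps the start of Ube3a. In the PFC its lowest, median, and highest levels were 16.9, 27.6, and 33.2 CPM in WT and 32.2, 44.6, and 68.8 CPM in Ube3a2X. In the Hypo they were 9.59, 15.4, and 24.4 CPM in WT and 15.8, 27.6, and 59.0 CPM in Ube3a2X. The groups overlapped in both tissues, by little in the PFC. Its effect was 0.79 in the PFC (SE 0.181, adjusted p of 0.386 by edgeR) and 0.88 in the Hypo (SE 0.20, adjusted p of 0.581), and the difference was -0.088 (SE 0.273, interval -0.64 to 0.47), and -0.022 without female 471. Although edgeR did not call it, DESeq2 called it in both tissues, and edgeR with an offset for GC content and length called it in the PFC. The library kit keeps the strand, but the strand setting of the counting is not given in the sources used here, so reads from Ube3a and from this transcript cannot be told apart. The increases in Ube3a itself were larger on the log2 scale, and the level of 9330162G02Rik was far lower.

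Snhg14, the long host transcript of the region, measured 82.1 to 144 CPM in PFC WT, 78.6 to 159 CPM in PFC Ube3a2X, and 134 to 264 CPM in Hypo Ube3a2X. In Hypo WT it was 35.8 CPM in female 471 and 108 to 160 CPM in the other 7 libraries. Its difference was -0.48 (SE 0.268), and -0.30 (SE 0.201) without that library. Herc2, which encodes another HECT ligase, had a difference of -0.28 (SE 0.174), with 121 CPM in female 471 and 322 to 387 CPM in the rest of Hypo WT, and -0.12 without it. For Ndn, an imprinted gene expressed in the hypothalamus from the paternal copy, the difference was 0.18 with all libraries and 0.013 without female 471. Snrpn, which encodes a splicing protein from the paternal copy, had 0.22 and 0.087. These 4 differences were closer to 0 without that library, whereas Gabrg3 went from 0.18 to 0.30, Gabra5, another GABA-A subunit, from 0.16 to 0.21, and Nipa1 from -0.039 to 0.083.

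The PFC and Hypo effects of all genes other than Ube3a, none of which edgeR called, were set side by side. Over 12568 genes Pearson's r was -0.093 and Spearman's rho -0.028, and 50.9% of genes had the same sign in both tissues. Without Hypo WT female 471 r was -0.26 and rho -0.26, with the same sign in 40.5%. The genes are not independent replicates, both effects come from 1 fit, and 13 mice supply libraries to both, so these values are a description. Of the genes at an unadjusted p under 0.05 in both tissues, 31 had opposite signs and 4 had the same sign, namely 9330162G02Rik, A730056A06Rik, Hyls1, and Shisal1, named after their values were seen. Without Hypo WT female 471 these counts were 8 and 1.

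**Figure D2:**
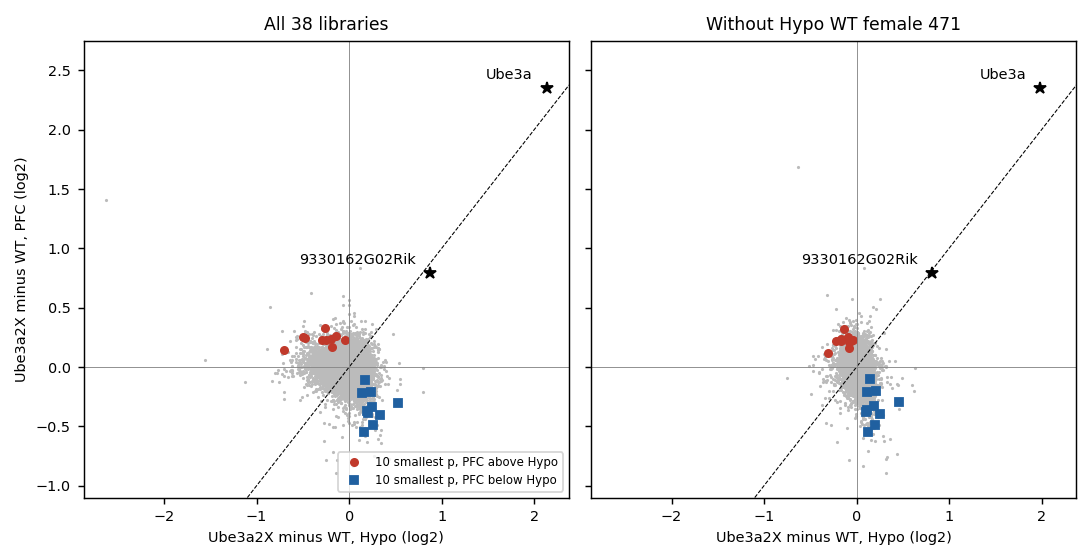
Effect of genotype (Ube3a2X minus WT, log2) of each tested gene in the Hypo on the horizontal axis and in the PFC on the vertical axis, with all 38 libraries and without Hypo WT female 471. Red circles and blue squares mark the first 10 genes of each direction by p for the difference, stars mark Ube3a and 9330162G02Rik, and the dashed line marks equal effects. Ube3a lies near that line at 2.14 and 2.35 with all libraries, far from all other genes.

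The 10 genes with the smallest p for the difference in each direction ranged from splicing, ribosomal, and cytoskeletal genes to a collagen and a cadherin, and none was called for the difference. A ranking by this difference favours effects of opposite sign, which 521 of the 523 positive and 421 of the 425 negative genes at an unadjusted p under 0.05 had. These 20 genes are described whether called or not, and the adjusted p from edgeR was 0.578 for all 20, and 0.998 without Hypo WT female 471. Beside the counts of 4.16% and 3.38% of genes that reach an unadjusted p under 0.05 in these directions, their ranks are those of the tail of that background. The positive differences had a median of 0.50, and 0.36 without that library, and the negative ones -0.59 and -0.50. All 20 kept their direction without it and had an unadjusted p under 0.05, although they were chosen in data that include the other 37 libraries. For the positive genes the Hypo effect had an unadjusted p under 0.05 in 8 of 10 with all libraries and in 2 without female 471.

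Among the positive genes, Txnl4b, which encodes a thioredoxin-like protein of the splicing machinery, had the smallest p. Its levels were 15.2, 17.0, and 18.8 CPM (lowest, median, highest) in PFC WT and 17.5, 18.5, and 22.3 CPM in PFC Ube3a2X. In the Hypo they were 11.5, 12.9, and 24.7 CPM in WT and 11.2, 12, and 13.2 CPM in Ube3a2X. The PFC Ube3a2X libraries lay in and above the WT range, and the highest Hypo WT value was that of female 471, with 13.5 CPM as the next. The difference was 0.48 (SE 0.127), and 0.30 (SE 0.0790) without that library.

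Nsdhl, an enzyme of cholesterol synthesis, drew its difference from the PFC. It measured 25.8, 28.1, and 32.2 CPM in PFC WT and 28.6, 32.0, and 40.6 CPM in PFC Ube3a2X, against 30.5, 33.5, and 36.4 CPM in Hypo WT and 30.0, 32.9, and 34.8 CPM in Hypo Ube3a2X. The Hypo groups nearly coincided. The PFC effect was 0.23 and the Hypo effect -0.048. Their difference was 0.28 (SE 0.0785), and 0.27 without female 471.

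Dlx6, a homeobox factor of forebrain GABAergic neurons, had the largest positive value of these 10. It measured 5.62, 6.05, and 7.57 CPM in PFC WT and 5.84, 6.43, and 8.18 CPM in PFC Ube3a2X, and in the Hypo 8.80, 11, and 38.7 CPM in WT and 6.03, 9.08, and 10.2 CPM in Ube3a2X. Female 471 alone accounted for the value of 38.7 CPM, and the next Hypo WT library had 12.3 CPM. The difference was 0.86 (SE 0.246), and 0.43 (SE 0.136) without that library, when the Hypo effect was -0.31 (SE 0.0978).

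Rpl23, a protein of the large ribosomal subunit, and Tmsb10, which binds actin monomers, had the same shape. Rpl23 reached 536 CPM in female 471 against 147 to 214 CPM in the other Hypo WT libraries, and Tmsb10 reached 574 CPM against 160 to 247 CPM. Their differences were 0.75 and 0.72 with all libraries, and 0.41 and 0.38 without it. Eef1a1, a translation elongation factor, had 0.40 and 0.34. Both genes of the protein synthesis machinery have processed copies elsewhere in the genome, as does Tmsb10, so that the counting may have split their reads. The other positive genes were Cgref1 (0.43, and 0.28 without female 471), Dnaaf4, an assembly factor of ciliary dynein (0.52 and 0.44), Aktip (0.35 and 0.25), and Fhad1 (0.60 and 0.45). Female 471 had the highest level of Hypo WT in all 4 of these genes.

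Among the negative genes, Msantd2 had the smallest p. It measured 6.36, 8.05, and 9.77 CPM in PFC WT and 5.10, 6.75, and 6.99 CPM in PFC Ube3a2X, and in the Hypo 5.91, 9.85, and 11.1 CPM in WT and 9.05, 10.8, and 12.5 CPM in Ube3a2X. The Ube3a2X median was below that of WT in the PFC and above it in the Hypo, and the groups overlapped in both tissues. The difference was -0.57 (SE 0.139), and -0.48 (SE 0.123) without female 471.

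Leng8 and Celsr3, an atypical cadherin of axon guidance, followed the PFC more than the Hypo. Leng8 measured 78.1, 88.0, and 119 CPM in PFC WT and 44.4, 67.3, and 102 CPM in PFC Ube3a2X, and 77.7, 150, and 193 CPM in Hypo WT and 108, 152, and 256 CPM in Hypo Ube3a2X. Its PFC effect was -0.49, its Hypo effect 0.26, and the difference -0.75 (SE 0.217), and -0.69 without female 471. Celsr3 had -0.39 and 0.21, and a difference of -0.60, and -0.48 without it. The PFC medians were lower in Ube3a2X, whereas the Hypo medians were close.

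Col11a1, a chain of fibrillar collagen, had the largest negative value of these 10, -0.82 (SE 0.238), and followed the Hypo. It measured 14.2, 19.2, and 29.5 CPM in Hypo WT and 19.8, 26.1, and 46.6 CPM in Hypo Ube3a2X, and 2.46 to 5.21 CPM over all PFC libraries. Without female 471 the difference was -0.75 and the Hypo effect 0.46 (SE 0.170). The other negative genes were 5930409G06Rik (-0.74, and -0.65 without female 471), Map4k2, a kinase of stress signalling (-0.44 and -0.41), Nfkbiz, a nuclear inhibitor of NF-kappa-B (-0.59 and -0.52), A330023F24Rik (-0.70 and -0.67), Ubp1, a transcription factor (-0.27 and -0.24), and Gm43597 (-0.36 and -0.32).

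**Figure D3:**
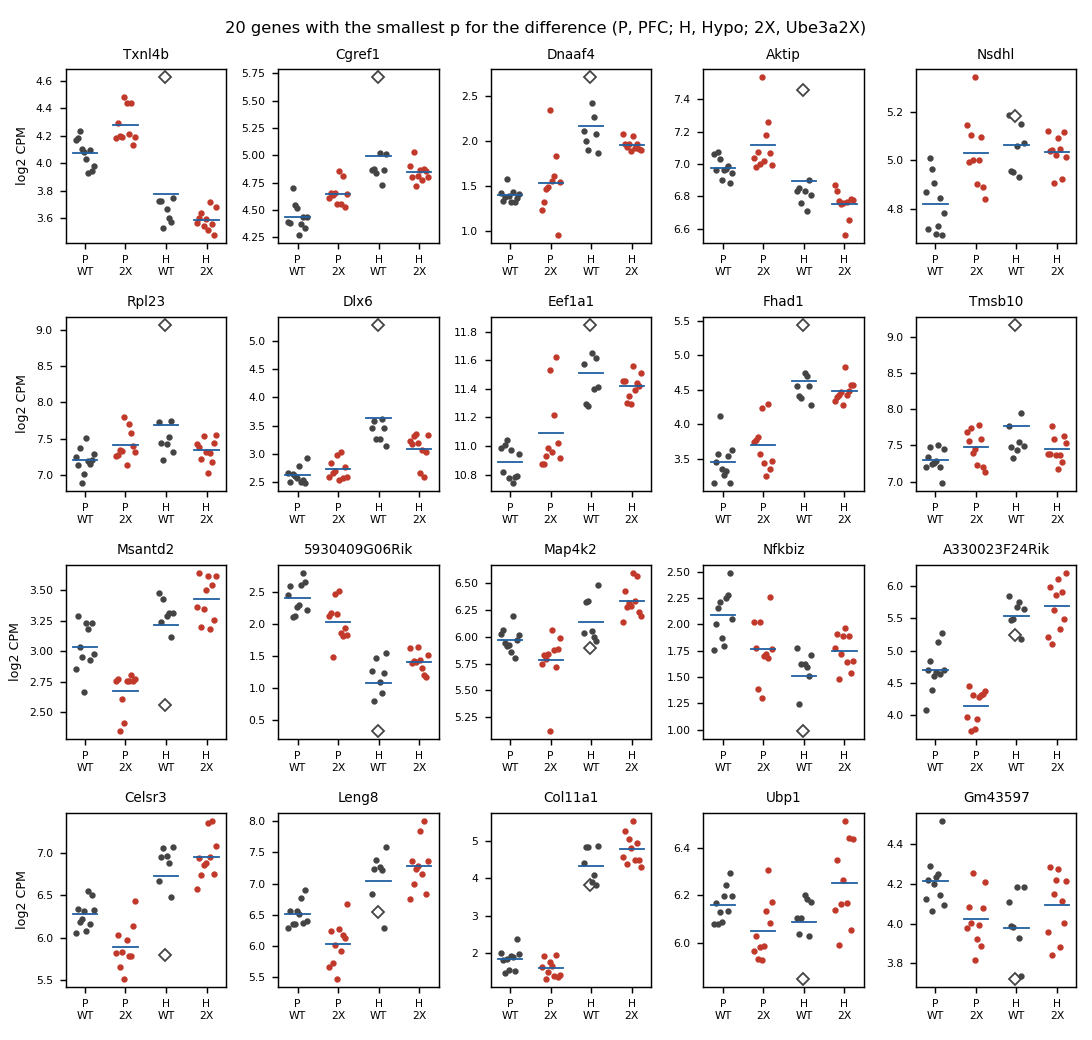
Levels of the first 10 genes of each direction by p for the difference, 1 panel a gene, in log2 CPM on the vertical axis, by tissue and genotype on the horizontal axis. Points are libraries, lines are group means, and open diamonds are Hypo WT female 471, which measured 38.7 CPM for Dlx6 where the other Hypo WT libraries had at most 12.3 CPM.

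RNA quality also differed between the groups. The median RIN was 7.8 in PFC WT, 7.35 in PFC Ube3a2X, and 8.95 in Hypo WT and in Hypo Ube3a2X. The median share of reads on the expected strand was 93.1% in PFC WT, 97.8% in PFC Ube3a2X, 98.5% in Hypo WT, and 98.3% in Hypo Ube3a2X, and the median share of intronic bases was 4.49%, 3.28%, 5.47%, and 6.10%. The medians of the genotypes thus lay further apart in the PFC than in the Hypo on each measure. The strand shares of the PFC groups overlapped, at 92.5% to 95.6% in WT and 91.5% to 99.1% in Ube3a2X. The part of these measures in the effects of single genes was not tested. With the strand share as a covariate edgeR called 0 genes for the difference, and Ube3a had 0.14.

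The differences followed transcript length with all libraries. Without Hypo WT female 471 the medians of the length classes lay close together, but the genes at an unadjusted p under 0.05 were still unevenly divided by length. Genes were divided into 5 classes of equal size by exon length, from 53 to 2665 bases in the shortest to 8027 to 123179 bases in the longest. From the shortest to the longest class, the median difference was 0.15, 0.049, 0.0036, -0.034, and -0.061. The medians of the Hypo effect ran from -0.15 to 0.092, and those of the PFC effect lay between -0.0013 and 0.023. At an unadjusted p under 0.05 the shortest class held 278 positive and 16 negative genes and the longest 11 and 153, and without that library they held 63 and 27, and 14 and 93. Over all genes the difference and the log of exon length had a Pearson's r of -0.44 across genes, which are not independent replicates, and r was -0.043 without that library, when the class medians were 0.0073 and 0.018 at the ends. For GC content the reverse was seen. In 5 classes from low to high GC the median difference was 0.0061, 0.022, 0.015, 0.0097, and 0.0036 with all libraries, and 0.046, 0.043, 0.017, -0.015, and -0.065 without female 471. Lesser trends the opposite way were seen in Hypo Ube3a2X male 238 (-0.59), PFC Ube3a2X female 468 (-0.56), and PFC Ube3a2X male 258 (-0.41).

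**Figure D4:**
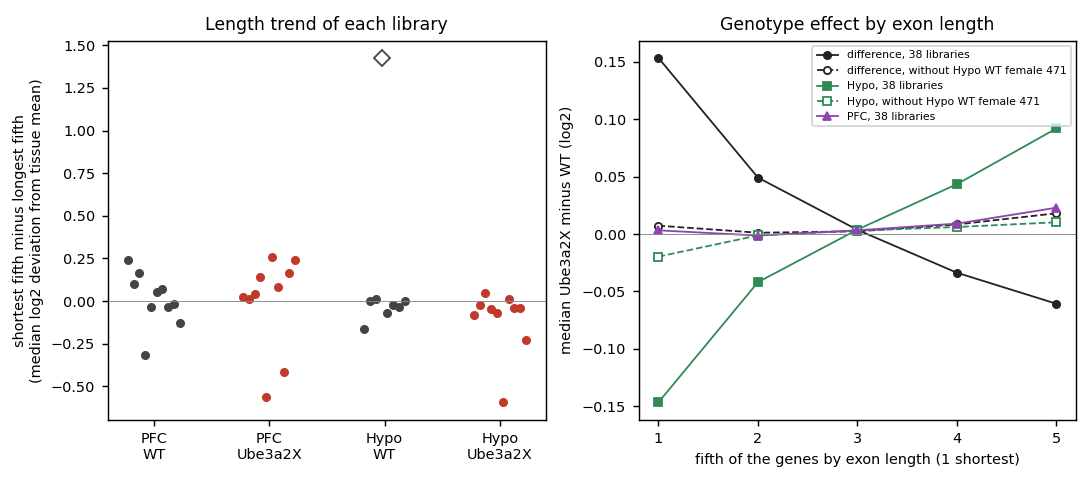
Left, the length trend of each library (log2), with Hypo WT female 471 at 1.43. The trend is the median deviation from the tissue mean of short genes minus that of long genes. Right, the median effect of genotype (log2) in each class of exon length in the PFC, in the Hypo, and as their difference, with all libraries and without that library, when the class medians of the difference lie between 0.0011 and 0.018.

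Lists of genes were described by the counts and medians of their tested members beside those of all genes, where the difference was positive for 6674 genes and negative for 5895, with a median of 0.012, and for 6621 and 5948 with a median of 0.0080 without Hypo WT female 471. For the machinery around UBE3A, the 25 HECT ligases other than Ube3a all had negative differences, from -0.33 to -0.011 with a median of -0.081, and 0 had an unadjusted p under 0.05. When Hypo WT female 471 was left out, 14 were positive and 11 negative, with a median of 0.012. Of 32 subunits of the proteasome, 30 were positive and 2 negative with a median of 0.21, and 6 had an unadjusted p under 0.05, all positive, where 4.16% of all genes were so. One of them was Psmb2, a subunit of the proteasome core, at 0.44 (SE 0.154). Psmb2 measured 95.3 CPM in female 471 and 40.8 to 46.7 CPM in the rest of Hypo WT. Without that library 23 subunits were positive and 9 negative, the median was 0.032, 1 positive subunit had an unadjusted p under 0.05 (1.42% of all genes), and Psmb2 had 0.22 (SE 0.0995). The HECT ligases were thus close to all genes without that library. In the PFC the effects of genotype on 25 subunits were then positive and on 7 negative, with a median of 0.044. There 7 positive effects had an unadjusted p under 0.05, where 3.17% of all genes did. In the Hypo 22 were positive and 10 negative, with a median of 0.018 and 0 at an unadjusted p under 0.05. With all libraries the Hypo effects were positive for 3 and negative for 29 subunits. Over all genes without that library, 6614 PFC effects were positive and 5955 negative, and 6364 and 6205 in the Hypo.

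Of 18 listed substrates and targets of UBE3A, 17 were tested, 9 with a positive and 8 with a negative difference, a median of 0.024, and 1 positive gene at an unadjusted p under 0.05, where 4.16% of all genes were so (Psmd4, a ubiquitin receptor of the proteasome, 0.32, and 0.075 without female 471). Without that library 6 were positive and 11 negative, with a median of -0.077. The 10 tested steroid receptors and coactivators had 4 positive and 6 negative differences with 0 at an unadjusted p under 0.05. Their median was -0.017, and 0.045 without female 471, when 7 were positive and 3 negative. Both medians changed sign with that 1 library.

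The list of GABAergic neurons had a positive median with and without that library. All 14 genes were tested, 12 with a positive and 2 with a negative difference, with a median of 0.34 and 4 positive genes at an unadjusted p under 0.05, where 4.16% of all genes were so. The median effect was -0.0023 in the PFC and -0.30 in the Hypo, where 7 members had a negative effect at an unadjusted p under 0.05, against 5.84% of all genes. Without female 471, 11 differences were positive, the median was 0.19, 2 were at an unadjusted p under 0.05 (1.42% of all genes), and 5 negative Hypo effects were (0.223% of all genes). The differences ran from -0.15 to 0.86 with all libraries, and from -0.58 to 0.51 without female 471. The Hypo effects without that library ran from -0.47 to 0.44, so members did not all go the same way. No member passed the adjusted test in either tissue or for the difference. The summed level of the list in female 471, 1950 CPM, lay within the 1394 to 2098 CPM of the other Hypo libraries.

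Dlx1, a homeobox factor of these neurons, had the smallest p of the list. It measured 20.5, 22.3, and 27.9 CPM in PFC WT and 21.1, 23.5, and 32.1 CPM in PFC Ube3a2X, and in the Hypo 27.9, 34.1, and 61.6 CPM in WT and 21.9, 26.7, and 38 CPM in Ube3a2X. The PFC groups overlapped almost wholly, and the Hypo median was lower in Ube3a2X. The lowest of Hypo Ube3a2X were males 258 (21.9 CPM) and 238 (23.0 CPM). The difference was 0.51 (SE 0.162), and 0.36 (SE 0.142) without female 471. Sst, the neuropeptide somatostatin, had a difference of 0.86 (SE 0.350), and 0.51 (SE 0.319) without that library. Its levels were 46.4, 82.0, and 219 CPM in Hypo WT, with 219 CPM in female 471. In Hypo Ube3a2X they were 17.7, 53.8, and 78.1 CPM, with 17.7 CPM in male 238 and 42.3 CPM as the next lowest. Gad2, an enzyme that makes GABA, had 0.28 (SE 0.133) with all libraries and 0.36 (SE 0.119) without it, and was picked with its value known.

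**Figure D5:**
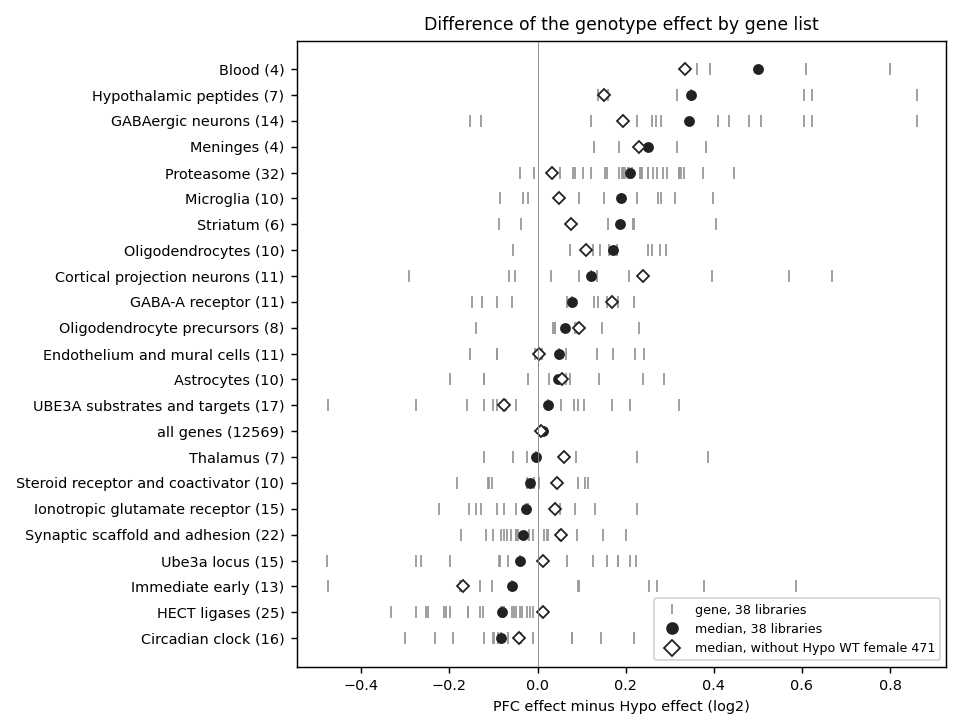
Difference of the genotype effect (PFC minus Hypo, log2, horizontal axis) for each list of genes with 4 or more tested members (vertical axis, number tested in parentheses). Ticks are members, filled points are medians with all 38 libraries, and open diamonds are medians without Hypo WT female 471, which moves the proteasome from 0.21 to 0.032 and the GABAergic neurons from 0.34 to 0.19.

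Of 22 hypothalamic peptides only 7 passed the filter in both tissues, all 7 with a positive difference, a median of 0.35, and 2 at an unadjusted p under 0.05 (Sst and Npy, both also on the list of GABAergic neurons), where 4.16% of all genes were so. Without female 471, 6 were positive and 0 were at an unadjusted p under 0.05, and the median was 0.15. None of the 16 hypothalamic transcription factors could be compared, since none passed the filter in the PFC. Of 17 genes of cortical projection neurons 11 were tested, 8 positive and 3 negative, with a median of 0.12, and 9 and 2 with a median of 0.24 without female 471. Nrgn, a calmodulin-binding protein of the postsynapse, had 0.67 (SE 0.282) and 0.29 (SE 0.218) without female 471, which had 138 CPM against 29.2 to 60.7 CPM in the rest of Hypo WT.

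Receptors and scaffolds of synapses had medians that were higher without female 471. The 11 tested subunits of GABA-A receptors had a median of 0.079, the 15 ionotropic glutamate receptor subunits -0.027, and the 22 scaffold and adhesion genes -0.032, each with 0 genes at an unadjusted p under 0.05. Without that library the medians were 0.17, 0.040, and 0.053, and 9 of the 11 GABA-A subunits were positive, with 1 gene (Gabrg3) at an unadjusted p under 0.05 (1.42% of all genes). The 13 immediate early genes had a median of -0.059, and -0.17 without female 471, with 11 of 13 then negative. Of 16 circadian clock genes 12 were negative with and without it, and Per3, a period gene, had -0.30 (SE 0.144), and -0.20 without it.

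Of the markers of other cells, the 10 oligodendrocyte genes had 9 positive differences with a median of 0.17, and 0.11 without female 471, and 0 were at an unadjusted p under 0.05. The 10 microglial genes had 7 positive differences with a median of 0.19 and 0.049 without it, with Aif1, a calcium-binding protein of microglia, at 0.40 (SE 0.141) and 0.21 (SE 0.0925), both at an unadjusted p under 0.05. The 10 astrocyte genes (median 0.046, and 0.055 without female 471), 8 genes of oligodendrocyte precursors (0.062 and 0.093), 11 of endothelium and mural cells (0.049 and 0.0036), 6 of the striatum (0.19 and 0.076), and 7 of the thalamus (-0.0033 and 0.060) had 0 at an unadjusted p under 0.05 either way. All 4 tested blood genes and all 4 tested meningeal genes had positive differences, with medians of 0.50 and 0.25, and of 0.33 and 0.23 without female 471, again with 0 at an unadjusted p under 0.05. Choroid plexus and pituitary genes passed the filter in both tissues in 0 cases, and 1 ependymal gene was tested. The part of blood, meningeal, and pituitary tissue in the Hypo effect was not tested.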

How the data were processed

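RNA was measured in 20 PFC and 18 Hypo libraries. The authors prepared stranded mRNA libraries, aligned them to GRCm38 (STAR), and counted reads on Gencode v24 genes (featureCounts). The deposited table holds raw read counts for 54165 genes, and 53905 were found in GENCODE vM21, used for coordinates and exon length. A second deposited table gives, per library, a score for RNA integrity (RIN). There the authors also give, from Picard, the fraction of reads on the expected strand and of intronic bases, and the ratio of 5' to 3' coverage. For PFC WT male 266 that table has 66 as the mouse, and the row was joined by sample name. Counted reads were 36.9 to 69.1 M in the PFC and 39.0 to 380.8 M in the Hypo, and the median interval of the difference reached 0.28 (log2) to either side. No pair of libraries of a group agreed within sampling noise.

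A gene was dropped if 2 or more libraries of either tissue had under 100 reads for it, which left 12569. Counts were fitted in R 4.3.3 with edgeR 4.0.16 (TMM, robust quasi-likelihood), with the 4 groups of tissue and genotype, sex, and RIN, over all 38 libraries, with Benjamini-Hochberg adjustment over all genes tested. Intervals are 95%. CPM is read counts scaled to a common total with TMM factors. Log2 CPM had a prior count of 2 in the length trend, the within-mouse values, and the deviations of paired libraries. Levels drawn in the figures are log2 of CPM without a prior count. Levels in the section on flagged results are log2 of CPM plus a small constant. A length trend was computed from deviations of log2 CPM from the mean of all libraries of the tissue. Alternatives used limma 3.58.1, DESeq2 1.42.0, and sva 3.50.0. Scripts were tested on simulated counts. Figures were drawn with Python 3.11.15 and matplotlib 3.10.9.

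Replicate numbers name mice, so the libraries of 13 mice are paired. Their deviations from the group means correlated at -0.55 to 0.41 (median -0.056, 3 of 13 over 0.1), and a block for the mouse was an alternative.

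The comparison, gene lists, and tests were chosen with earlier results of these data known. The genes named are those of the Ube3a locus, the first 10 of each direction by p for the difference, every gene called, 12 genes that mark the tissues, and in each list the member with the smallest p in each direction, of which those at an unadjusted p under 0.05 are given. Other genes are marked where named. One gene of this set is not reported here, and counts over lists include it.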

Additional observations from a re-analysis of the deposited data

Results flagged for a closer look

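For 41 named genes and the length trend, the highest and lowest library of each group of tissue and genotype were compared with the rest of the group by Dixon's test at the 95% level. Of 168 groups examined 41 had a library that stood apart by this test, where chance gives about 1 in 20, or 8.4. That share is for independent values, whereas these genes vary together and most were chosen by their p in the same libraries. Hypo WT female 471 was that library in 24 cases, and the other 17 were spread over 6 libraries. All values here are levels in log2 CPM, set beside the range of the other libraries of the same group, except the length trend, which is a difference in log2.

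In Hypo WT female 471 the genes of the Ube3a locus were mostly low. Ube3a was 6.82 against 8.08 to 8.50, Snhg14 was 5.16 against 6.75 to 7.33, Herc2 was 6.92 against 8.33 to 8.60, Atp10a was 3.21 against 3.91 to 4.37, Gabrg3 was 5.52 against 6.24 to 6.53, Nipa1 was 5.28 against 6.12 to 6.52, Cyfip1 was 6.14 against 6.43 to 6.64, and Tubgcp5 was 4.45 against 5.21 to 5.44. Snrpn and Ndn were high instead, with Snrpn at 10.14 against 9.26 to 9.48 and Ndn at 10.17 against 9.02 to 9.50. Among the genes ranked by the difference between tissues, those with a positive difference were high. Txnl4b was 4.63 against 3.53 to 3.75, Cgref1 was 5.72 against 4.73 to 5.02, Aktip was 7.46 against 6.71 to 6.90, Rpl23 was 9.07 against 7.20 to 7.74, Dlx6 was 5.28 against 3.14 to 3.62, Fhad1 was 5.43 against 4.27 to 4.74, and Tmsb10 was 9.17 against 7.32 to 7.95. Of the genes with a negative difference, Msantd2 was 2.56 against 3.12 to 3.48 and Celsr3 was 5.80 against 6.47 to 7.07. Members of the other lists were high as well. Psmb2 was 6.57 against 5.35 to 5.55, Psmd4 was 7.51 against 6.29 to 6.49, Nrgn was 7.11 against 4.87 to 5.92, and Aif1 was 3.48 against 2.33 to 2.76. The length trend was 1.43 against -0.16 to 0.011.

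In Hypo Ube3a2X male 238, Fhad1 was 4.83 against 4.28 to 4.57, Snrpn was 9.05 against 9.34 to 9.43, Ndn was 8.4 against 9.05 to 9.45, Herc2 was 9.01 against 8.51 to 8.68, Psmb2 was 4.97 against 5.39 to 5.52, and Sst was 4.15 against 5.40 to 6.29. Its length trend was -0.59 against -0.23 to 0.047. In PFC Ube3a2X female 468, Aktip was 7.54 against 6.98 to 7.26, Map4k2 was 5.12 against 5.72 to 6.07, Gabrg3 was 6.97 against 5.55 to 6.28, and Herc2 was 8.79 against 8.31 to 8.49. In PFC Ube3a2X male 258, Sst was 5.33 against 6.38 to 7.33 and Dlx1 was 5.01 against 4.40 to 4.68. In PFC WT female 397, Dnaaf4 was 1.59 against 1.33 to 1.44 and Fhad1 was 4.12 against 3.16 to 3.63. In PFC WT female 259, 9330162G02Rik was 4.08 against 4.55 to 5.05. In PFC WT male 266, Gm43597 was 4.52 against 4.06 to 4.29. The cause of these deviations was not tested.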

How the results depend on the processing

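The difference of the Ube3a effect between tissues was positive and not called in all 54 alternatives, at 0.035 to 0.36 with an adjusted p of 0.494 to 0.999, and Ube3a was called in each tissue in all 53 alternatives that estimate the tissue effects, with PFC increases of 2.20 to 2.41 and Hypo increases of 1.95 to 2.21 (log2). The first 10 genes of each direction by p kept their direction in every alternative that could be fitted for them. No gene was called for the difference except with 2 surrogate variables over all libraries, which called 1 gene, Nubp1 (adjusted p = 0.0154). In the PFC, 3 genes were called with DESeq2 (9330162G02Rik, Nsdhl, and Ube3a), 3 with filterByExpr (B3gnt7, Gm44829, and Ube3a), 2 without a filter on low counts (Gm44829 and Ube3a), and 2 with an offset for GC content and length (9330162G02Rik and Ube3a). In the Hypo 2 were called with DESeq2 (9330162G02Rik and Ube3a). The within-mouse difference of Ube3a was 0.23 to 0.36 when 1 mouse was left out, with an exact permutation p of 0.0485 without mouse 238, 0.30 with a prior count of 0.5, and 0.066 in males only, an alternative chosen after seeing the data.

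Against 948 genes at an unadjusted p under 0.05 for the difference, there were 1862 with 2 surrogate variables over all libraries (847 positive and 1015 negative), 2211 of 21332 genes with filterByExpr (1450 and 761), 3568 of 40489 genes without a filter (1488 and 2080), and 532 to 1268 when 1 library was left out, the lowest without Hypo WT female 471. Without the 5 libraries with the strongest length trend, chosen after seeing the data, there were 563. With the replicate block for the mouse, the random block called 0 genes (smallest adjusted p = 0.821) and gave Ube3a a difference of 0.10, and the fixed block, which rests on the 13 mice with both tissues, called 0 (0.171) and gave 0.35. The block changed no call. Within tissues, the 550 PFC genes at an unadjusted p under 0.05 became 1405 and 1264 with 2 surrogate variables over all libraries and per tissue, 2188 with filterByExpr, 3799 without a filter, 990 with the GC and length offset, 842 with the strand share, and 885 without the 5 libraries, and the 917 Hypo genes became 459 and 172 with the surrogate variables, 2492 without a filter, 1391 with slopes for sex and RIN per tissue, and 93 without the 5 libraries.

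Of the locus genes, 5 changed sign in some alternatives, from differences of -0.088 for 9330162G02Rik, -0.085 for Cyfip1, -0.067 for Nipa2, -0.039 for Nipa1, and 0.18 for Ndn. With 2 surrogate variables over all libraries 9330162G02Rik was 0.010, Ndn -0.028, and Nipa1 0.034. With 2 per tissue 9330162G02Rik was 0.048. With the fixed block Ndn was -0.084, Nipa1 0.14, Nipa2 0.087, and Cyfip1 0.029. With filterByExpr Nipa1 was 0.011, and with the offset 9330162G02Rik was 0.30 and Cyfip1 0.019. With the strand share as a covariate, chosen after seeing the data, Nipa1 was 0.039, and without the 5 libraries 9330162G02Rik was 0.086 and Nipa1 0.045. When 1 library was left out, 9330162G02Rik ranged from -0.21 to 0.035 (positive without Hypo Ube3a2X male 238 at 0.033 or Hypo WT male 403), and Nipa1 from -0.11 to 0.083 (positive without Hypo WT female 471 or, at 0.0056, PFC Ube3a2X male 402). The cause was not tested. With 8 to 10 libraries a group the median interval of the difference reached 0.28 to either side, and the parts of depth and of the spread between mice in it were not tested.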

Other observations

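Genes with the largest differences, given here after their values were seen, did not have the smallest p. Of 12569 genes 9 had an absolute difference above 1 (log2), and 5 without Hypo WT female 471. The largest was Bc1, a noncoding RNA of dendrites, at 4.04 (SE 1.87), with 1.41 in the PFC and -2.63 in the Hypo. Without that library it was 2.32 (SE 1.61). Pcsk1n, which encodes an inhibitor of prohormone processing, had 1.61 (SE 0.805), and 0.66 (SE 0.770) without it. Ccn2, a growth factor of the extracellular matrix, had 1.04 (SE 0.480) and 0.92 (SE 0.496), and the negative ones were Gm47512, an antisense transcript, at -1.21 (SE 0.494) and -1.1 (SE 0.497), Gm27694 at -1.03 (SE 0.314) and -1.08 (SE 0.323), and Col19a1, a collagen, at -1.01 (SE 0.357) and -0.82 (SE 0.305).

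Without Hypo WT female 471 other genes came forward, also seen after their values, and none was called. Gpr176, an orphan receptor of the clock neurons of the suprachiasmatic nucleus, had a difference of 0.27 (SE 0.0722) against 0.25 with all libraries. Lypd6 had 0.43 against 0.38. Acat3, an acetyl-CoA acetyltransferase, had -0.81 (SE 0.229) against -0.43 (SE 0.293), and Nubp1, which takes part in the assembly of iron-sulfur proteins, had -0.44 against -0.37.

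Genes expressed mainly in 1 tissue had no value for the difference. The filter left out 255 genes that passed only in the PFC and 1395 that passed only in the Hypo, among them 11 of 22 hypothalamic peptides and 11 of 16 hypothalamic transcription factors.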
